A study of Mus musculus with 33 samples.

Results

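The full depth of the mouse thymic cortex was compared by setting 3 arrays of its innermost layer, the perimedullary cortex, against 3 arrays of its outermost layer, the subcapsular cortex. The 6 arrays were chosen by their titles, out of 33 in the series. A further 3 arrays of central cortex lie between both layers and are given as values only, as the midpoint of the depth. Every array of these layers held RNA of microdissected tissue from male C57BL6 mice aged 4 to 6 weeks. The strain is also written C57bl6/J, and no genotype or agent is named. Whole cortex (n = 7) and whole medulla (n = 7) from the same kind of mice are used where a gene's level in the medulla matters. Each title names its array a biological replicate. Nothing ties a layer to an animal or says whether animals were pooled, so p-values measure a spread between samples, not between animals. That spread was estimated over all 33 arrays, with whole tissue and sorted thymocytes included. Since each array holds bulk tissue, more cells of a type and more RNA per cell cannot be told apart.

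The thymic cortex is the place where T cell precursors become T cells. Precursors enter from blood vessels near the medulla, move outward to the capsule as double-negative thymocytes that carry neither CD4 nor CD8, divide there, and turn into double-positive thymocytes, which fill most of the cortex. Double-positive cells whose antigen receptor binds self peptide and MHC on cortical epithelium receive a signal called positive selection, then switch on CCR7 and move inward to the medulla. Medullary epithelium displays genes of other tissues under the control of AIRE, and dendritic cells, macrophages and B cells gather at and inside the border between both compartments.

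Values are MAS5 signals, a linear brightness per probe set in arbitrary units. An offset of 26.2, the lower quartile of a typical array, was added before taking log2, so signals of about that size or less lie at the dim end. A call needed a log2 fold change of at least 1 in size and an adjusted p below 0.05 (limma, Benjamini-Hochberg over all genes). Here, "rose" and "fell" mean called higher and called lower in perimedullary than in subcapsular cortex. The median signal of the 6 arrays lay between 78.8 and 95.5. Arrays of one layer, central cortex included, had Pearson correlations of 0.9832 to 0.9876. The upper range was narrower in these layers than in whole tissue: the value exceeded by 0.1% of probe sets was 16919 to 19984 in the subregion arrays and 33358 to 75998 in the whole-tissue arrays. Comparisons between a layer and whole tissue therefore mix 2 sets of arrays with different ranges.

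Of 13463 genes tested, 396 rose and 224 fell toward the medulla. The background share of called genes was 4.61% (2.94% higher and 1.66% lower), and the median log2 fold change over all genes was -0.0023. The largest rises were those of Pla2g2d, Gimap4, Ccr7 and Itgae, and the largest falls those of Car3, Ogn, Khdc1a and Aldh1a3, each described below. This ranking takes each gene at its brightest probe set. The other probe set of Pla2g2d had 1.93 and that of Itgae 1.78, both also called. Among the lists, the most members rose in those of mature thymocytes and positive selection, and the most fell in those of mitosis and sterol synthesis. Among called genes, 391 of the 396 higher and 220 of the 224 lower had arrays that did not overlap between the layers. Over all genes tested, 46.1% had arrays that did not overlap, 21.9% in the higher and 24.3% in the lower direction. The share of all genes at an unadjusted p below 0.05 is not given here. Counts of list members at that level, printed below, therefore have no background to be read against. Some 502 of the 620 called genes stand in none of the 37 lists used below, which cover cell types and pathways of the thymus.

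**Figure D1:**
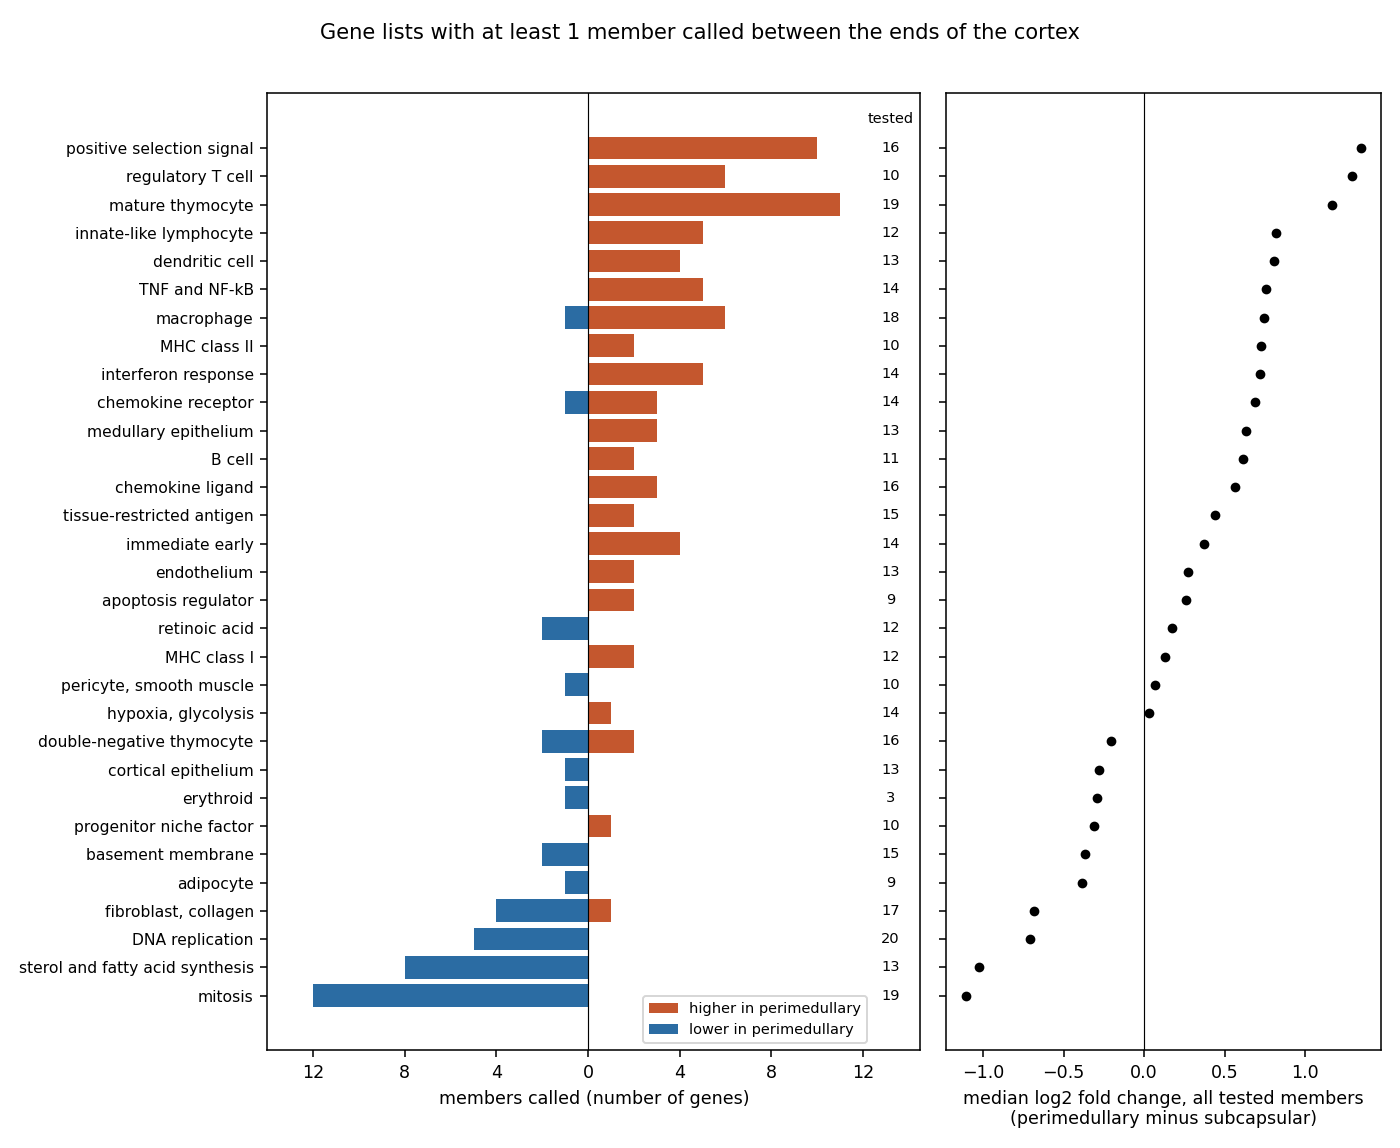
Number of members called higher (right) or lower (left) in perimedullary than in subcapsular cortex for each gene list with at least 1 called member, the number of members tested, and on the right the median log2 fold change over all tested members. Lists of selected and mature thymocytes lie at the top with medians above 1, and mitosis and sterol synthesis lie at the bottom with medians below -1.

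Genes switched on by antigen receptor signalling rose early along the depth and were already high in central cortex. Of 16 genes of the positive selection list, 10 rose and 6 did not pass the test, with a median log2 fold change of 1.35. Egr2, a transcription factor induced by receptor signalling, read 505, 488 and 500 in the subcapsular arrays, 1365, 1508 and 1296 in the central arrays and 1899, 1938 and 2488 in the perimedullary arrays. The layers did not overlap, and most of the difference lay between the outer and the middle layer. The log2 fold change was 2.02 (SE 0.17, adjusted p = 4.8e-11). Cd69, an activation marker that holds cells in tissue, read 496, 536 and 413, then 1510, 1639 and 1124, then 2265, 1669 and 2483 from the outer to the inner layer (log2 fold change 2.08, SE 0.20, adjusted p = 1.4e-09). All inner arrays were above all central ones, the lowest of them by a narrow margin.

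Egr3, a relative of Egr2, had the largest change of the list, 2.26 on the log2 scale (SE 0.19, adjusted p = 6e-11), with 151, 146 and 175 in the subcapsular arrays and 918, 734 and 907 in the perimedullary arrays. Of its 2 probe sets only the brighter one went this way, and their mean gave 0.85, below the size asked for a call. Nr4a3, an orphan nuclear receptor of the same response, read 150, 147 and 94.4 at the capsule and 470, 605 and 623 near the medulla (log2 fold change 1.93, SE 0.18, adjusted p = 4.6e-10). Central cortex was placed between the ends by a position on the log2 scale, with 0 for the subcapsular and 1 for the perimedullary mean. The 10 called genes of this list had positions of 0.514 to 0.858, with a median of 0.64. Every one of them had thus covered more than 0.5 of its log2 difference by the central layer.

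Immediate early genes, the fast transcriptional response that shares Egr1 with the list above, rose in 4 of 14 cases, with a median log2 fold change of 0.37. Egr1 read 3088, 2593 and 2194 in subcapsular, 5868, 6218 and 5298 in central and 7254, 7107 and 7325 in perimedullary arrays (log2 fold change 1.47, SE 0.14, adjusted p = 1.9e-09). Nr4a1, which encodes NUR77, rose by 1.60 (SE 0.28, adjusted p = 9.2e-05) and Nfkbiz, a nuclear regulator of NF-kB, by 1.53 (SE 0.18, adjusted p = 7.4e-08). Fos, a subunit of the AP-1 factor, rose by 1.08 (SE 0.28, adjusted p = 0.0054) but fell below the size threshold without perimedullary array 1 (0.94) or subcapsular array 3 (0.97).

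Of 14 genes of TNF and NF-kB signalling, 5 rose, with a median of 0.76. Traf1, an NF-kB target and adaptor of TNF receptors, read 376, 376 and 343 in subcapsular and 1153, 1057 and 1118 in perimedullary arrays (log2 fold change 1.54, SE 0.21, adjusted p = 2.4e-06). Lta, which encodes lymphotoxin alpha, rose by 1.71 (SE 0.36), Relb, of the alternative NF-kB pathway, by 1.33 (SE 0.22) and Bcl3 by 1.31 (SE 0.30), with adjusted p-values of 0.00084, 3.1e-05 and 0.0016. Of 9 regulators of apoptosis, 2 rose, with a median of 0.26. Gadd45b, a stress-induced gene, read 94.2, 161 and 126 at the capsule and 681, 669 and 735 near the medulla (log2 fold change 2.26, SE 0.25, adjusted p = 2.4e-08). Bcl2l11, which encodes the death factor BIM, had a change of 1.04 (SE 0.24, adjusted p = 0.0021) that fell below the size threshold without perimedullary array 3 (0.82) or subcapsular array 1 (0.97). Averaging its probe sets gave 0.93, also below it.

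Mature thymocyte genes held some of the largest rises, and several stayed near the subcapsular level through central cortex. Of 19 tested genes, 11 rose and 8 did not pass, with a median log2 fold change of 1.17. Ccr7, the receptor that draws selected thymocytes to the medulla, read 55.7, 35.5 and 6.6 in subcapsular, 120, 94.1 and 123 in central and 636, 600 and 702 in perimedullary arrays. The 3 layers did not overlap, and the subcapsular signals were near the dim end of the arrays. The log2 fold change was 3.61 (SE 0.22, adjusted p = 1.1e-14). Gimap4, a GTPase of T cell survival, read 555, 527 and 543, then 1580, 1407 and 1594, then 6931, 6697 and 7241 (log2 fold change 3.62, SE 0.17, adjusted p = 4.4e-17). It also rose in order of depth with no overlap between neighbours.

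Itgae, which encodes the CD103 integrin chain, read 180, 189 and 166 in subcapsular and 259, 220 and 287 in central arrays, against 2729, 2070 and 2378 in perimedullary arrays (log2 fold change 3.56, SE 0.20, adjusted p = 1.1e-15). Nearly all of its difference lay between central and perimedullary cortex, at a central position of 0.128. Ms4a4b, a membrane protein of T cells, read 721, 758 and 736 at the capsule and 5415, 5809 and 5981 near the medulla (log2 fold change 2.91, SE 0.16, adjusted p = 6.7e-16). S1pr1, the receptor that leads mature cells out of the thymus, read 61, 79 and 80.5, then 83, 74.8 and 69.9, then 219, 170 and 205 (log2 fold change 1.17, SE 0.24, adjusted p = 0.00054). Its outer and central arrays overlapped, and under quantile normalization its change was 0.93, short of a call. Called members of this list had central positions from 0.0326 to 0.892, with a median of 0.368, a wider spread than in the selection list.

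**Figure D2:**
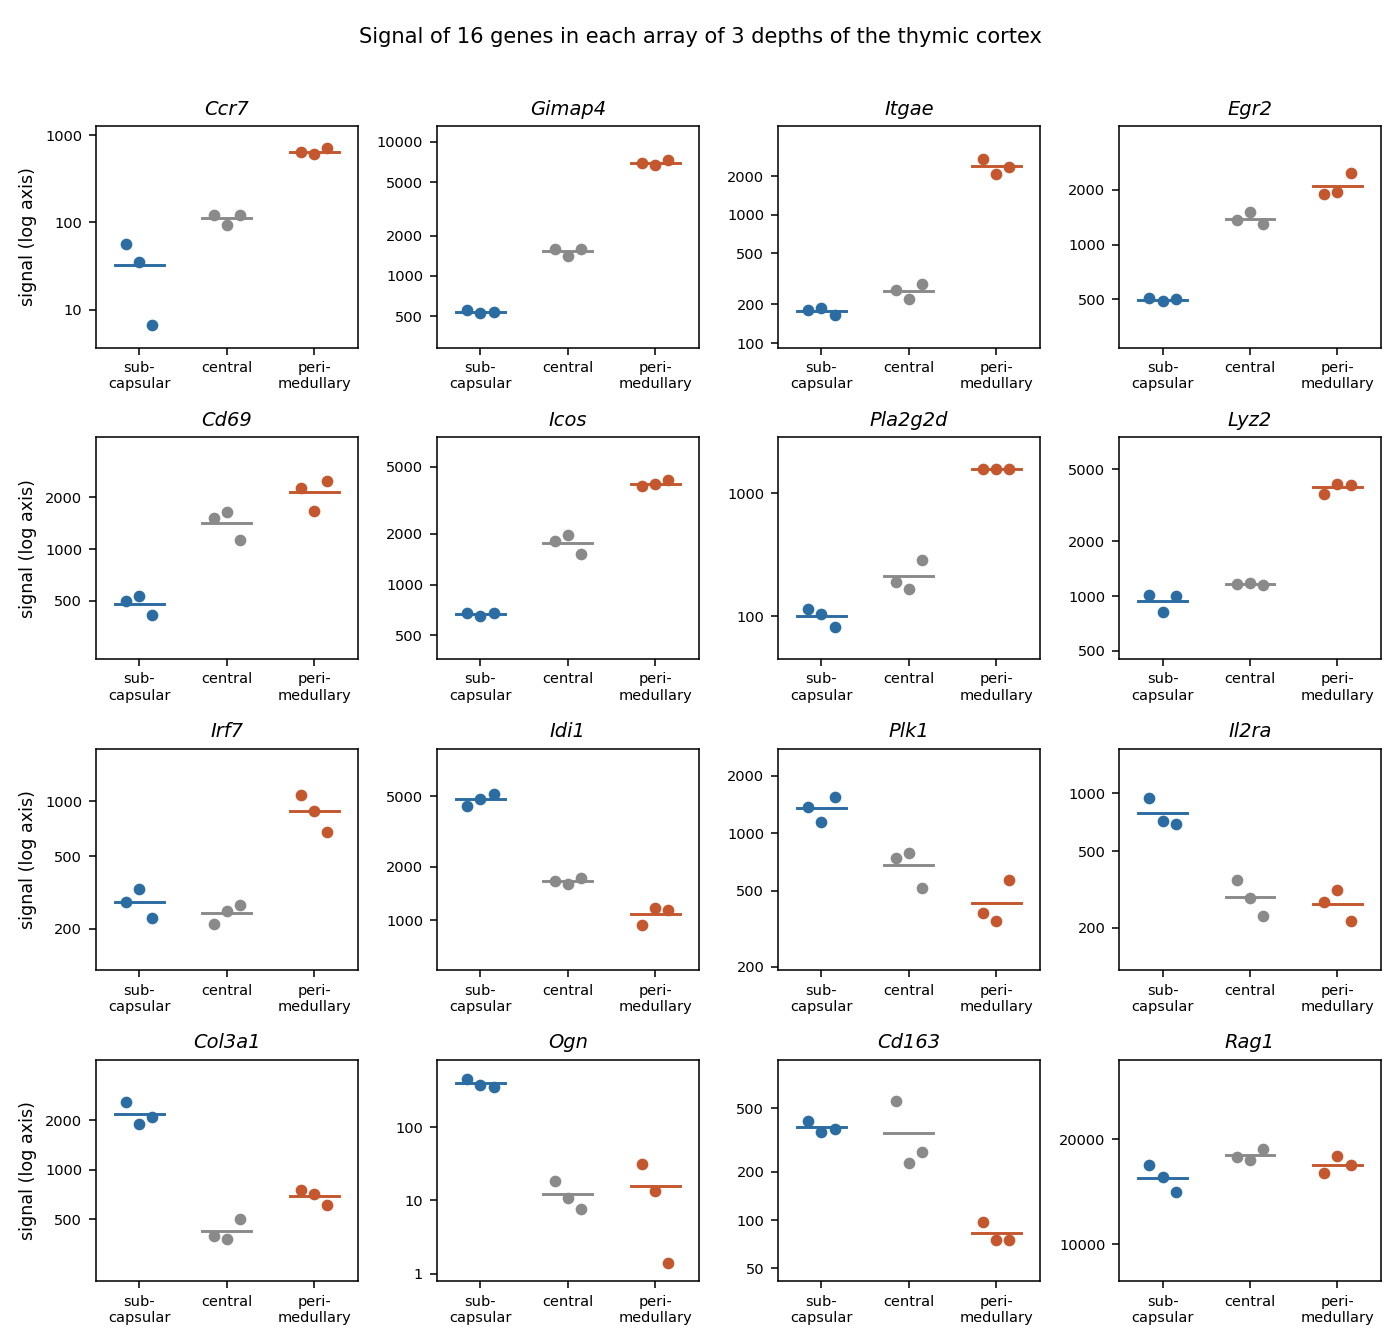
Signal (log axis, arbitrary units) of 16 genes in each of the 9 subregion arrays, with a bar at the mean of each layer. Egr2 and Cd69 are already raised in central cortex, Itgae, Lyz2, Pla2g2d and Irf7 are far higher in perimedullary than in central arrays, Idi1, Plk1 and Il2ra fall inward, Col3a1 and Ogn are high at the capsule, and the Rag1 arrays overlap between the layers compared.

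Of 10 genes of regulatory T cells, 6 rose, with a median of 1.29. Icos, a costimulatory receptor, read 673, 651 and 680 in subcapsular, 1807, 1971 and 1516 in central and 3830, 3938 and 4158 in perimedullary arrays (log2 fold change 2.53, SE 0.13, adjusted p = 3.1e-16). Gpr83 rose by 1.73 (SE 0.43) and Tnfrsf4, which encodes OX40, by 1.45 (SE 0.28), with adjusted p-values of 0.0044 and 0.0003. Il2rb, a chain of the IL-2 receptor, had 4.43, 9.18 and 11 at the capsule and 122, 49.1 and 46.9 near the medulla, and its call was lost without perimedullary array 1 (log2 fold change 1.11, adjusted p = 0.053, against 1.45 with it). Averaging its probe sets gave 0.90 (adjusted p = 0.10), also short of a call.

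Of 12 tested genes of innate-like lymphocytes, 5 rose, with a median of 0.82, and Id2 and Zbtb16 alone did so under quantile normalization. Id2, a regulator of innate and effector lymphocytes, read 924, 982 and 880 in subcapsular and 3314, 2864 and 3375 in perimedullary arrays (log2 fold change 1.75, SE 0.17, adjusted p = 2.4e-09). Its plain-suffix probe set had 0.89 (adjusted p = 0.072), short of a call. Zbtb16, which encodes PLZF, the factor of natural killer T cells, read 47.4, 42.9 and 39.4 against 156, 166 and 188 (log2 fold change 1.498, SE 0.34, adjusted p = 0.0019). Nkg7 and Klrd1, genes of cytotoxic cells, rose by 1.15 (SE 0.24) and 1.12 (SE 0.22). Under quantile normalization they had 0.97 and 0.94, both short of a call.

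The early stages of the lineage split in both directions. Of 16 double-negative thymocyte genes, 2 rose and 2 fell, with a median of -0.21. Il2ra, which encodes CD25 and marks double-negative cells before and during selection for a beta chain, read 951, 718 and 697 in subcapsular, 353, 286 and 231 in central and 271, 314 and 217 in perimedullary arrays. The subcapsular arrays stood above all others, and the inner layers overlapped. The log2 fold change was -1.47 (SE 0.27, adjusted p = 0.00012). Ptcra, the surrogate alpha chain of the pre-receptor, read 1892, 2239 and 1909, then 1154, 1577 and 1176, then 758, 869 and 866, in order of depth without overlap. Its log2 fold change was -1.25 (SE 0.37, adjusted p = 0.016), and the adjusted p was 0.065 without perimedullary array 1 and 0.067 without subcapsular array 2.

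Both genes that rose from this list are also used at other stages. Il7r, the IL-7 receptor that double-positive cells lack and mature cells regain, read 1609, 1153 and 1237 in subcapsular, 1685, 1155 and 1146 in central and 3470, 2945 and 3451 in perimedullary arrays (log2 fold change 1.30, SE 0.25, adjusted p = 0.00024). Flt3, a receptor of early progenitors and dendritic cells, read 59.7, 23.7 and 50.6 against 152, 147 and 119 (log2 fold change 1.25, SE 0.31, adjusted p = 0.0034). Kit, the receptor of the earliest thymic progenitors, read 243, 213 and 261 in subcapsular and 268, 199 and 270 in perimedullary arrays (log2 fold change 0.03, SE 0.40, adjusted p = 0.98), with full overlap.

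Double-positive thymocyte genes had a median log2 fold change of 0.02, and limma called 0 of 15. At an unadjusted p below 0.05, 2 were higher and 1 lower. Rag1, part of the recombinase that cuts antigen receptor genes, read 16864, 15571 and 14114 in subcapsular, 17854, 17492 and 18783 in central and 16061, 17885 and 16839 in perimedullary arrays (log2 fold change 0.13, SE 0.46, adjusted p = 0.92). These signals lie at the upper end of the layer arrays, and the 7 whole-cortex arrays, at 30868 to 61756, were all higher. Rag2, its partner, read 2542, 3348 and 3316 against 2790, 3350 and 2573 (log2 fold change -0.08, SE 0.33, adjusted p = 0.93). Bcl6, with the smallest p of the list, had 2578, 2976 and 2595 against 5378, 3668 and 3903 (log2 fold change 0.65, SE 0.17, adjusted p = 0.007), short of the size threshold. In whole medulla, Rag2 read 18.7, 28.8 and 80.0 as lowest, median and highest of 7 arrays.

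In the Notch pathway, which commits precursors to the T lineage, limma called 0 of 17 genes, and at an unadjusted p below 0.05, 1 was higher and 3 lower. Notch1, the receptor itself, read 4568, 4892 and 4348 in subcapsular, 3246, 3177 and 3208 in central and 3187, 3318 and 3069 in perimedullary arrays. The subcapsular arrays were all higher and the inner layers overlapped, but the log2 fold change of -0.52 (SE 0.15, adjusted p = 0.013) was too small for a call. Of 10 factors that feed early thymocytes, 1 rose, with a median log2 fold change of -0.31. Arrays were all lower in perimedullary cortex for 6 of them and all higher for 2. The member that rose, Igf1, read 195, 178 and 276 against 569, 622 and 569 (log2 fold change 1.36, SE 0.34, adjusted p = 0.0047). Among probe sets with a plain suffix it had 0.76 and an adjusted p of 0.051.

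Genes of cell division fell from the capsule inward. Of 19 tested mitosis genes, 12 fell and 7 did not pass, with a median log2 fold change of -1.11, and 18 had arrays that were all lower in perimedullary than in subcapsular cortex. Plk1, a kinase of mitotic entry and spindle assembly, read 1362, 1141 and 1536 in subcapsular, 739, 784 and 514 in central and 380, 346 and 566 in perimedullary arrays. The outer layer was clear of both others, while 1 inner array lay among the central ones. Its log2 fold change was -1.61 (SE 0.23, adjusted p = 3.5e-06). Ube2c, the ubiquitin-conjugating enzyme that helps cells leave mitosis, read 4012, 3946 and 4456, then 2083, 2220 and 2379, then 1406, 1618 and 1627 (log2 fold change -1.402, SE 0.24, adjusted p = 5.4e-05). Kif20a, a motor of cytokinesis, and Aurkb, a kinase that corrects chromosome attachment, fell by 1.33 and 1.32 on the log2 scale (SE 0.16 and 0.25). The 12 called genes had central positions of 0.597 to 0.804, so that more of their log2 difference lay in the outer than in the inner part of the cortex.

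DNA replication genes fell in 5 of 20 cases, with a median of -0.71, and 18 of the 20 had arrays all lower in perimedullary cortex. Lig1, the ligase that joins lagging-strand fragments, read 4198, 5646 and 4987 in subcapsular and 1524, 2016 and 1807 in perimedullary arrays (log2 fold change -1.46, SE 0.16, adjusted p = 4.4e-08). Pola1, the catalytic subunit of the priming polymerase, fell by 1.42 on the log2 scale (SE 0.19), Cdc45, part of the replicative helicase, by 1.38 (SE 0.17) and Cdc6, a licensing factor, by 1.24 (SE 0.15). The adjusted p-values of these genes were 9.9e-07, 2.9e-07 and 2.6e-07. Among probe sets with a plain suffix 11 members fell, and Cdc45 averaged over its probe sets had -0.82.

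Genes of cholesterol and fatty acid synthesis fell as well. Of 13 tested, 8 fell and 5 did not pass, with a median log2 fold change of -1.03. Without subcapsular array 3, 4 fell. Idi1, which interconverts the isoprene units from which sterols are built, read 4403, 4838 and 5134 in subcapsular, 1669, 1592 and 1732 in central and 946, 1181 and 1139 in perimedullary arrays. The 3 layers were fully apart, and the drop between the outer and the central layer was the larger one. Its log2 fold change was -2.12 (SE 0.20, adjusted p = 1e-09). Sqle, the enzyme of the first oxygenation step, read 2143, 2026 and 2125, then 784, 847 and 975, then 511, 492 and 599 (log2 fold change -1.93, SE 0.18, adjusted p = 4.4e-10).

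Cyp51, the sterol demethylase, read 412, 459 and 634 in subcapsular and 180, 173 and 203 in perimedullary arrays (log2 fold change -1.299, SE 0.17, adjusted p = 1.3e-06). Insig1, which restrains the sterol-sensing factor SREBP, had 641, 591 and 965 against 317, 327 and 272, and fell by 1.17 on the log2 scale (SE 0.25, adjusted p = 0.0011). Without subcapsular array 3 it was -0.96. Called members of the list had central positions of 0.606 to 0.814. In whole tissue Idi1 read 1431, 1870 and 3196 in cortex and 879, 1046 and 1285 in medulla as lowest, median and highest of 7 arrays, and it was not called between the compartments (log2 fold change -0.90). The perimedullary and the medullary level of Idi1 differed by 0.02 on the log2 scale (SE 0.17, adjusted p = 0.91).

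Promoters of 4 of these genes are shown because mitosis and sterol genes moved together across the cortex and many promoters of both kinds are known to carry CCAAT boxes, the element bound by the factor NF-Y. Each line gives 150 bases up to the start of the gene, 5′ to 3′ on the strand of the gene, from RefSeq on build GRCm38.p6, with CCAAT, or its reverse complement ATTGG, in capitals. The windows lie at chr7:122159285-122159434 (plus strand, Plk1), chr2:164769779-164769928 (plus strand, Ube2c), chr13:8885456-8885605 (plus strand, Idi1) and chr5:4104698-4104847 (minus strand, Cyp51).
Plk1: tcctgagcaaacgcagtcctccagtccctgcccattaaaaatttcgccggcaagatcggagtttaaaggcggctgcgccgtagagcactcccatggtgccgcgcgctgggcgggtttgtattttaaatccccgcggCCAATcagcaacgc
Ube2c: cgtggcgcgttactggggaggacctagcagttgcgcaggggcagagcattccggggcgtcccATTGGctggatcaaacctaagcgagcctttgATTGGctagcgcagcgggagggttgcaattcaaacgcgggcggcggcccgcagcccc
Idi1: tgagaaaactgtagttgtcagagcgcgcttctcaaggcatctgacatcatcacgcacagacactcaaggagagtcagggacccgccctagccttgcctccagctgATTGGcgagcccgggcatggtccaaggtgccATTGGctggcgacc
Cyp51: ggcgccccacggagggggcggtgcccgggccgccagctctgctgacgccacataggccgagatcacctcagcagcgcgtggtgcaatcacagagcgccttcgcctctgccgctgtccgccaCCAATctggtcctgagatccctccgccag
The window of Plk1 holds 1 such element, Ube2c 2, Idi1 2 and Cyp51 1. Searched over the 250 bases before the start on both strands, CCAAT was present for 15 of the 17 tested mitosis genes with a promoter entry and for 8 of the 9 such sterol genes. Among the called members with an entry it was present for 9 of 10 and 5 of 5. Of all 27025 promoters in the table, 34.5% hold it in a window of that length. A match of letters is no measured site, and a link between the element and the change across the cortex was not tested.

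Of 13 cortical epithelial genes, Psmb11 fell and 12 did not pass, with a median log2 fold change of -0.28. Arrays were all lower in perimedullary cortex for 7 of them and all higher for 1. The summed signal of the list was 82330 to 90044 in subcapsular, 77478 to 77864 in central and 78264 to 81422 in perimedullary arrays, so that the outer layer lay above both others. Psmb11, the thymoproteasome subunit that makes peptides for positive selection, read 3648, 3460 and 3424 in subcapsular, 2561, 2322 and 1692 in central and 1681, 1565 and 1742 in perimedullary arrays (log2 fold change -1.07, SE 0.27, adjusted p = 0.005). Its outer arrays stood above all others. The call was lost with a smaller offset (adjusted p = 0.099) and under quantile normalization (-0.998, just short of the size threshold). Prss16, a protease of the same cells, read 8324, 6652 and 6627 against 7563, 7975 and 6504 (log2 fold change 0.03, SE 0.19, adjusted p = 0.95), with overlap.

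Medullary epithelial genes were low at every depth of the cortex, with small rises toward the medulla. Of 13 tested, 3 rose and 10 did not pass, with a median of 0.63. Under quantile normalization, and without perimedullary array 1, 1 rose. Aire, the regulator of tissue-restricted genes, read 44.2, 47.4 and 35.5 in subcapsular, 15.7, 55 and 55.5 in central and 105, 146 and 114 in perimedullary arrays, against 2092, 2323 and 2639 as lowest, median and highest of the 7 medullary arrays. Its log2 fold change was 1.10 (SE 0.38, adjusted p = 0.039). With any of the 6 arrays left out, its adjusted p lay above 0.05, between 0.0705 without perimedullary array 1 and 0.14 without perimedullary array 2. Fezf2, a second regulator of self-antigen genes, read 4.64, 3.78 and 4.91 against 68, 53.2 and 77.3 (log2 fold change 1.58, SE 0.31, adjusted p = 0.00031). Spib rose by 1.03 (SE 0.27) and had 0.98 without perimedullary array 1.

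Krt14, the keratin of basal medullary epithelium, read 160, 62 and 245 in subcapsular and 171, 125 and 137 in perimedullary arrays (log2 fold change 0.04, SE 0.40, adjusted p = 0.97), against a lowest value of 2196 in the medulla. Of 15 tissue-restricted antigens, 2 rose, with a median of 0.44. Wfdc18, a whey acidic protein domain gene, read 10.3, 61.1 and 87.6 at the capsule and 453, 305 and 606 near the medulla (log2 fold change 2.70, SE 0.40, adjusted p = 6.4e-06), against a median of 15365 in whole medulla. Csn2, which encodes beta-casein, read 8.99, 4.79 and 19.7 against 168, 169 and 182 (log2 fold change 2.43, SE 0.39, adjusted p = 2.5e-05), in 1 of its 2 probe sets. With plain-suffix probe sets, 0 of the list rose.

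The size of these differences was set beside that of other lists. The difference between perimedullary and subcapsular mean signal was expressed as a percentage of that between whole medulla and subcapsular cortex, for list members called higher in whole medulla than in whole cortex. The median was 4.6% for 12 medullary epithelial genes, 2.95% for 15 tissue-restricted antigens and 7.58% for 11 dendritic cell genes. It was 20.0% for 14 mature thymocyte genes, 22.8% for 7 positive selection genes and 26.4% for 9 regulatory T cell genes. Other lists had medians near these, with 19.0% for macrophage, 22.7% for B cell and 26.9% for endothelial genes. Higher ones were 32.1% for 7 innate-like lymphocyte, 36.5% for 10 immediate early and 81.3% for 4 hypoxia and glycolysis genes. Low medians were not limited to epithelial genes, with 5.58% for 13 chemokine ligands and 3.28% for 6 Notch pathway genes. Each percentage divides by a difference between the layer arrays and the whole-tissue arrays, whose ranges differ. Single genes varied widely, from -60.4% to 39.1% in the medullary epithelial and from -99.7% to 130.0% in the regulatory T cell list. Over all 2511 genes higher in the medulla it was 7.62%. The summed signal of the medullary epithelial list was 2856 to 3141 in subcapsular, 2640 to 2929 in central and 3854 to 4034 in perimedullary arrays, and 26162 to 30804 in whole medulla. The part of medullary tissue in the perimedullary samples was not tested.

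**Figure D3:**
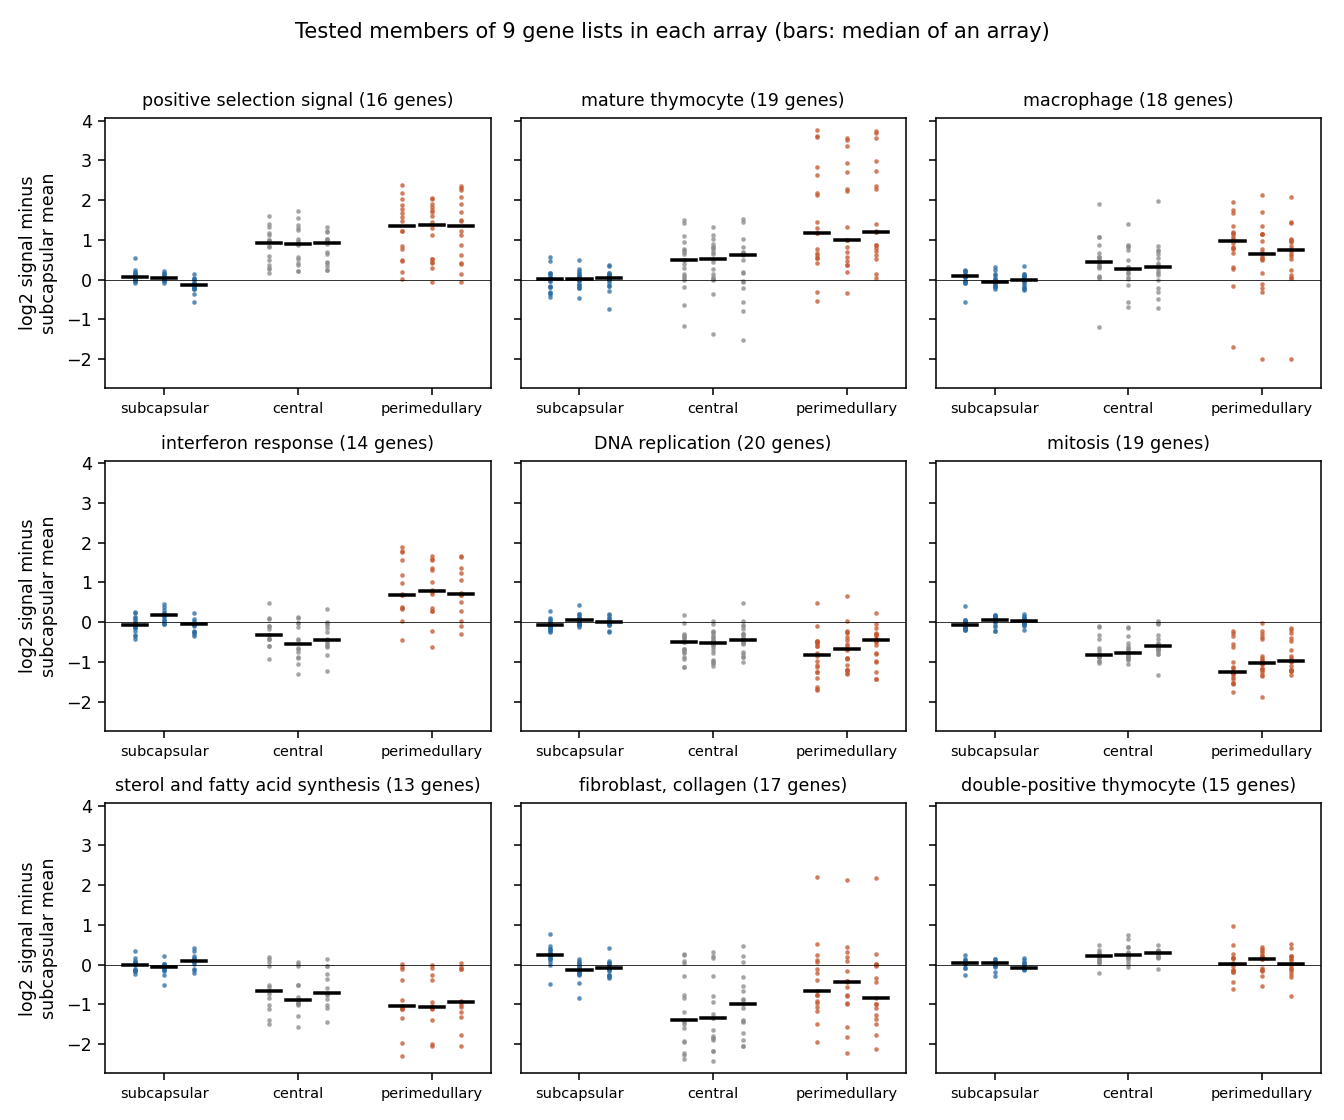
Log2 signal of each tested member of 9 gene lists in the 9 subregion arrays, minus the gene's mean over the subcapsular arrays; black bars are the median of an array. Medians of the positive selection list are 0.9 to 0.91 in central and 1.34 to 1.36 in perimedullary arrays, those of the interferon list are below 0 in all central arrays and 0.7 to 0.79 in perimedullary arrays, and the double-positive list stays within 0.3 of 0.

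Macrophage genes rose in part toward the medulla. Of 18 tested macrophage genes, 6 rose and 1 fell, with a median of 0.75. Lyz2, lysozyme of macrophages and granulocytes, read 1006, 812 and 1001 in subcapsular, 1163, 1172 and 1148 in central and 3665, 4147 and 4063 in perimedullary arrays (log2 fold change 2.05, SE 0.17, adjusted p = 7.9e-11). Timd4, a receptor for dying cells, read 61.4, 76.4 and 64, then 112, 146 and 130, then 286, 276 and 224 (log2 fold change 1.62, SE 0.37, adjusted p = 0.0018). C1qc, a complement subunit made by resident macrophages, rose by 1.42 (SE 0.23, adjusted p = 1.9e-05). The summed signal of the list was 16101 to 18407 at the capsule, 19274 to 24136 in central cortex and 30981 to 35168 near the medulla.

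Cd163, the haemoglobin scavenger receptor of a macrophage subset, went the other way. It read 412, 353 and 372 in subcapsular and 555, 226 and 265 in central arrays, and 98.1, 75 and 75.7 in perimedullary arrays (log2 fold change -1.90, SE 0.42, adjusted p = 0.0013). Its outer and central arrays overlapped, and only the inner layer was low, at a central position of 0.112. In whole medulla its lowest, median and highest signals were 11.5, 32.6 and 95.2.

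Several of the largest rises of all were those of genes outside the macrophage list. Pla2g2d, a secreted phospholipase made by dendritic cells and macrophages of lymphoid tissue, had the largest one. It read 115, 104 and 81 in subcapsular, 190, 165 and 287 in central and 1580, 1586 and 1564 in perimedullary arrays (log2 fold change 3.68, SE 0.31, adjusted p = 1e-10). Clec7a, the beta-glucan receptor dectin-1, read 160, 138 and 177, then 206, 161 and 351, then 1814, 1556 and 1594 (log2 fold change 3.19, SE 0.27, adjusted p = 1.3e-10). For both, the perimedullary arrays lay far above all others, and the central arrays overlapped the outer ones for Clec7a and lay above them for Pla2g2d. Itgb3, an integrin chain, rose by 3.05 (SE 0.33), Ms4a4c by 3.04 (SE 0.35) and Fcgbp, a mucus-associated protein, by 2.89 (SE 0.35), with adjusted p-values of 2.2e-08, 5.2e-08 and 1.8e-07. The other probe set of Itgb3 had 0.20 (adjusted p = 0.87 in the limma fit of every probe set).

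Of 13 dendritic cell genes, 4 rose, with a median of 0.81, and 2 rose when the probe sets of a gene were averaged. Ccl22, a chemokine of mature dendritic cells, read 35.6, 10 and 34.1 in subcapsular and 233, 189 and 248 in perimedullary arrays (log2 fold change 2.28, SE 0.30, adjusted p = 9.9e-07). Itgax, which encodes CD11c, read 134, 105 and 113 against 465, 407 and 404 (log2 fold change 1.66, SE 0.31, adjusted p = 0.00016). Sirpa, a marker of the migratory conventional subset and of macrophages, rose by 1.53 (SE 0.30), and averaging its probe sets gave 0.69. Fscn1, the actin bundler of mature dendritic cells, had 354, 355 and 400 against 1897, 1792 and 2271 (log2 fold change 2.34, SE 0.23), but its 2 other probe sets did not go this way, and with plain-suffix probe sets it had -0.0087 (adjusted p = 0.995). Its direction depends on the probe set.

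B cell genes rose in 2 of 11 cases, with a median of 0.62. Ms4a1, which encodes CD20, read 25.4, 44.6 and 72.8 in subcapsular, 81.4, 41.2 and 96.8 in central and 661, 583 and 814 in perimedullary arrays (log2 fold change 3.31, SE 0.28, adjusted p = 1.1e-10). Cd22, an inhibitory B cell receptor, read 80.3, 138 and 104, then 172, 126 and 165, then 796, 558 and 935 (log2 fold change 2.55, SE 0.29, adjusted p = 4.6e-08). For both genes the perimedullary arrays were several times above the rest, and the other layers overlapped.

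Antigen presentation genes rose in part. Of 10 MHC class II genes, 2 rose, but 9 had arrays all higher in perimedullary cortex, with a median of 0.73. H2-Ob, a chain of the peptide-exchange inhibitor found in B cells and some epithelium, read 213, 196 and 198 against 1174, 1191 and 1643 (log2 fold change 2.56, SE 0.23, adjusted p = 3.1e-10). Ctss, the protease that trims the invariant chain, read 2501, 2406 and 2611 against 7252, 7960 and 7294 (log2 fold change 1.57, SE 0.18, adjusted p = 6e-08). Of 12 MHC class I genes, 2 rose, with a median of 0.13. Nlrc5, the activator of class I genes, read 287, 283 and 283 against 1721, 1481 and 1599 (log2 fold change 2.39, SE 0.15, adjusted p = 2.4e-14), and H2-D1, a classical class I heavy chain, rose by 1.25 (SE 0.19, adjusted p = 9.8e-06), with the same direction in all 5 of its probe sets, 1 of which did not pass the test (adjusted p = 0.075).

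Interferon response genes were high in the inner layer and lowest in the central one. Of 14 genes, 5 rose, with a median of 0.72, and central cortex was the lowest layer for 4 of these 5. Irf7, the factor that amplifies type I interferon, read 278, 328 and 228 in subcapsular, 213, 250 and 269 in central and 1084, 888 and 681 in perimedullary arrays (log2 fold change 1.57, SE 0.21, adjusted p = 1.7e-06). Oas2, an antiviral synthetase, rose by 1.70 (SE 0.26, adjusted p = 1.3e-05), Mx1, an antiviral GTPase, by 1.66 (SE 0.34, adjusted p = 0.00056) and Rsad2, which encodes viperin, by 1.33 (SE 0.23, adjusted p = 7.8e-05). Averaging the 3 probe sets of Rsad2 gave 0.95, short of a call. The 5 called genes had central positions between -0.53 and 0.107, where a value below 0 means a central level under the subcapsular one. The summed signal of the list was 9655 to 11121, then 6641 to 7998, then 15130 to 16013 from the outer to the inner layer. With plain-suffix probe sets 3 members rose.

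Chemokine ligands rose in 3 of 16 cases, with a median of 0.57, and in 5 without perimedullary array 2. Ccl8, a ligand made by macrophages, read 92.1, 54.1 and 54.2 in subcapsular, 102, 49.8 and 83.4 in central and 652, 631 and 593 in perimedullary arrays (log2 fold change 2.83, SE 0.35, adjusted p = 2.2e-07). Ccl5, a product of activated T cells, read 53, 35.4 and 59.7 against 275, 102 and 310 (log2 fold change 1.65, SE 0.40, adjusted p = 0.0028). Perimedullary array 2 was the lowest of its group for Ccl5. Of 14 chemokine and egress receptors, 3 rose and 1 fell, with a median of 0.69, and 1 rose under quantile normalization. Besides Ccr7 and S1pr1, Ccr2, the monocyte receptor, had 1.07 (SE 0.29, adjusted p = 0.0086), with 2 of 4 probe sets in this direction, and was below the size threshold without perimedullary array 1 (0.97), perimedullary array 2 (0.92) or subcapsular array 2 (0.99). Ackr3, a scavenging receptor, had -1.23 (SE 0.42, adjusted p = 0.038), and its adjusted p lay between 0.055 and 0.16 with any of the 6 arrays left out.

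Connective tissue genes set the outer layer apart. Of 17 tested fibroblast and collagen genes, 4 fell and 1 rose, with a median of -0.69, and without subcapsular array 1, 2 fell. Col3a1, a fibrillar collagen, read 2572, 1885 and 2087 in subcapsular, 395, 380 and 503 in central and 750, 716 and 613 in perimedullary arrays. The outer arrays stood far above, and central cortex was lowest, with all 3 layers apart. Its log2 fold change was -1.61 (SE 0.26, adjusted p = 1.8e-05). Mgp, a calcification inhibitor of vessel walls and fibroblasts, read 511, 326 and 280, then 101, 85 and 78.6, then 145, 82.6 and 123 (log2 fold change -1.46, SE 0.34, adjusted p = 0.0019). Pi16, a gene of adventitial fibroblasts, read 209, 50.5 and 115 against 9.43, 3.31 and 5.31 (log2 fold change -2.09, SE 0.54, adjusted p = 0.0054), and without subcapsular array 1 its adjusted p was 0.052.

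Postn, a matrix protein of remodelling tissue, was the member that rose: it read 143, 138 and 148 in subcapsular, 175, 170 and 170 in central and 757, 710 and 742 in perimedullary arrays (log2 fold change 2.17, SE 0.25, adjusted p = 9.1e-08). Of 15 basement membrane genes, 2 fell, with a median of -0.37. Nid1, a linker of the basement membrane, read 566, 375 and 429, then 124, 67.9 and 101, then 177, 112 and 114 (log2 fold change -1.59, SE 0.34, adjusted p = 0.00081). Lamb1, a laminin chain, fell by 1.24 on the log2 scale (SE 0.29, adjusted p = 0.002), and averaging its probe sets gave -0.66, which left 1 called gene in the list. The summed signal of the fibroblast list was 11535 to 15381 at the capsule, 5472 to 6162 in central cortex and 8320 to 9407 near the medulla.

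The 2 largest falls of all were Car3 and Ogn. Car3, a carbonic anhydrase abundant in fat and muscle, read 445, 743 and 1425 in subcapsular, 4.52, 22.2 and 16.2 in central and 39.9, 4.31 and 7.97 in perimedullary arrays (log2 fold change -4.30, SE 0.52, adjusted p = 1.6e-07). Its other probe set had -0.22 (adjusted p = 0.83 in the limma fit of every probe set), so the size of this fall rests on the brighter one. Car3 was the called member among 9 adipocyte genes, whose median was -0.38, and 2 fell without subcapsular array 1. Ogn, a small proteoglycan of connective tissue, read 459, 376 and 351, then 18.2, 10.8 and 7.61, then 31.7, 13.3 and 1.42 (log2 fold change -3.40, SE 0.38, adjusted p = 3.7e-08). Both were at the dim end of the arrays in the inner layers, which overlapped, and Car3 also differed several-fold among the subcapsular arrays. Col14a1, a collagen of dense connective tissue, fell by 2.32 (SE 0.32, adjusted p = 1.8e-06).

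Aldh1a3 and Aldh1a1, enzymes in the making of retinoic acid from vitamin A, were higher at the capsule than in the inner layers. Of 12 retinoic acid genes, 2 fell, with a median of 0.17. Aldh1a3 read 197, 264 and 229 in subcapsular, 1.64, 1.69 and 36.7 in central and 19, 19.2 and 5.85 in perimedullary arrays (log2 fold change -2.66, SE 0.39, adjusted p = 5.4e-06). Aldh1a1 read 149, 133 and 116, then 4.74, 8.05 and 7.05, then 3.38, 14.2 and 4.25 (log2 fold change -2.26, SE 0.43, adjusted p = 0.00023). For both, the outer arrays were clear of all others, and the inner layers were dim. Under the stricter filter on dim probe sets 0 of the list was called, since both genes were removed. Among the other large falls, Khdc1a fell by 2.73 (SE 0.35, adjusted p = 5.3e-07), Glrb, a glycine receptor subunit, by 2.66 (SE 0.42, adjusted p = 1.7e-05) and Dpep1, a membrane dipeptidase, by 2.38 (SE 0.53, adjusted p = 0.0013).

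Endothelial genes rose in 2 of 13 cases, with a median of 0.27. Vwf, the clotting factor stored in vessel walls, read 24.8, 21.2 and 22.5 in subcapsular and 174, 159 and 127 in perimedullary arrays (log2 fold change 1.87, SE 0.36, adjusted p = 0.00024), and Selp, the adhesion molecule that lets precursors enter, read 14.8, 36.3 and 19.3 against 123, 70.9 and 118 (log2 fold change 1.39, SE 0.34, adjusted p = 0.0031). Under the stricter filter on dim probe sets 0 of the list was called. Of 10 pericyte and smooth muscle genes, Myl9, a myosin light chain, fell by 1.66 (SE 0.44, adjusted p = 0.0065), and its adjusted p was 0.058 without perimedullary array 2. The list as a whole did not fall: its median was 0.07, and arrays were all higher in perimedullary cortex for 2 members and all lower for 3. Adm, a vasoactive peptide and the called member of 14 hypoxia and glycolysis genes, read 417, 291 and 307 against 1432, 1271 and 1466 (log2 fold change 1.97, SE 0.28, adjusted p = 3.6e-06). The median of those 14 genes was 0.03.

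Blood cell genes were uneven between arrays. Limma called 0 of 10 neutrophil genes, although their median was -1.17 and 5 were lower at an unadjusted p below 0.05. Arrays were all lower in perimedullary cortex for 6 of the 10, beside 24.3% of all genes. S100a9, a calcium-binding protein of neutrophils, read 2471, 1007 and 1980 in subcapsular, 1424, 407 and 96 in central and 774, 712 and 237 in perimedullary arrays (log2 fold change -1.69, SE 0.64, adjusted p = 0.068). Its arrays differed several-fold within the central and the perimedullary layer. A fit of only the 6 arrays called 5 members of the list lower, array weights also 5, and the replicate block 2. Hbb-b2, a beta-globin, fell by 2.16 (SE 0.49, adjusted p = 0.0017), and Alas2, a haem enzyme and the called one of 3 red cell genes, by 1.52 (SE 0.49, adjusted p = 0.028). Another of the 3 was higher at an unadjusted p below 0.05, and their median was -0.29. The summed signal of the 3 was 247 to 334 in subcapsular and 308 to 388 in perimedullary arrays, so red cell genes had no common direction. The call of Alas2 was lost in 5 of the 6 fits with 1 array left out, with adjusted p-values of 0.076, 0.075 and 0.058 without perimedullary array 1, 2 or 3 and 0.085 and 0.13 without subcapsular array 2 or 3.

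Limma called 0 of 14 BMP and TGF-beta genes (2 higher and 1 lower at an unadjusted p below 0.05; 1 was called lower with averaged probe sets), with Id3, an inhibitor of differentiation factors, at a log2 fold change of 0.43 (SE 0.15). It called 0 of 15 antioxidant genes (1 higher and 6 lower at that level), with Prdx4, a peroxiredoxin of the endoplasmic reticulum, at -0.88 (SE 0.17, adjusted p = 0.0002). In the antioxidant list 1 gene was called higher under the stricter filter, with array weights and with the replicate block. The count was also 1 in fits of the 6 arrays, of the subregion arrays and without subcapsular array 1. Limma called 0 of 4 mesothelial genes, and 0 at an unadjusted p below 0.05, with Krt19, a keratin, at -0.79 (SE 0.46, adjusted p = 0.28).

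The shape of the change along the depth differed among the lists. Over all 396 genes that rose, the central position had a median of 0.369 and quartiles of 0.17 and 0.586. Over the 224 that fell it had a median of 0.714 and quartiles of 0.624 and 0.861. Genes that rose were thus mostly nearer to the subcapsular level in central cortex, and genes that fell were mostly nearer to the perimedullary level. Against these medians, the called positive selection genes (0.64) and immediate early genes (0.686) had changed earlier than most genes that rose, and the interferon genes (-0.105) later. Fibroblast and basement membrane genes that fell both had a median of 1.31, and all but Pi16 (0.837) lay beyond 1, which means that central cortex was lower than both ends. These positions are descriptions of 3 means per gene, and the differences among lists were not tested.

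**Figure D4:**
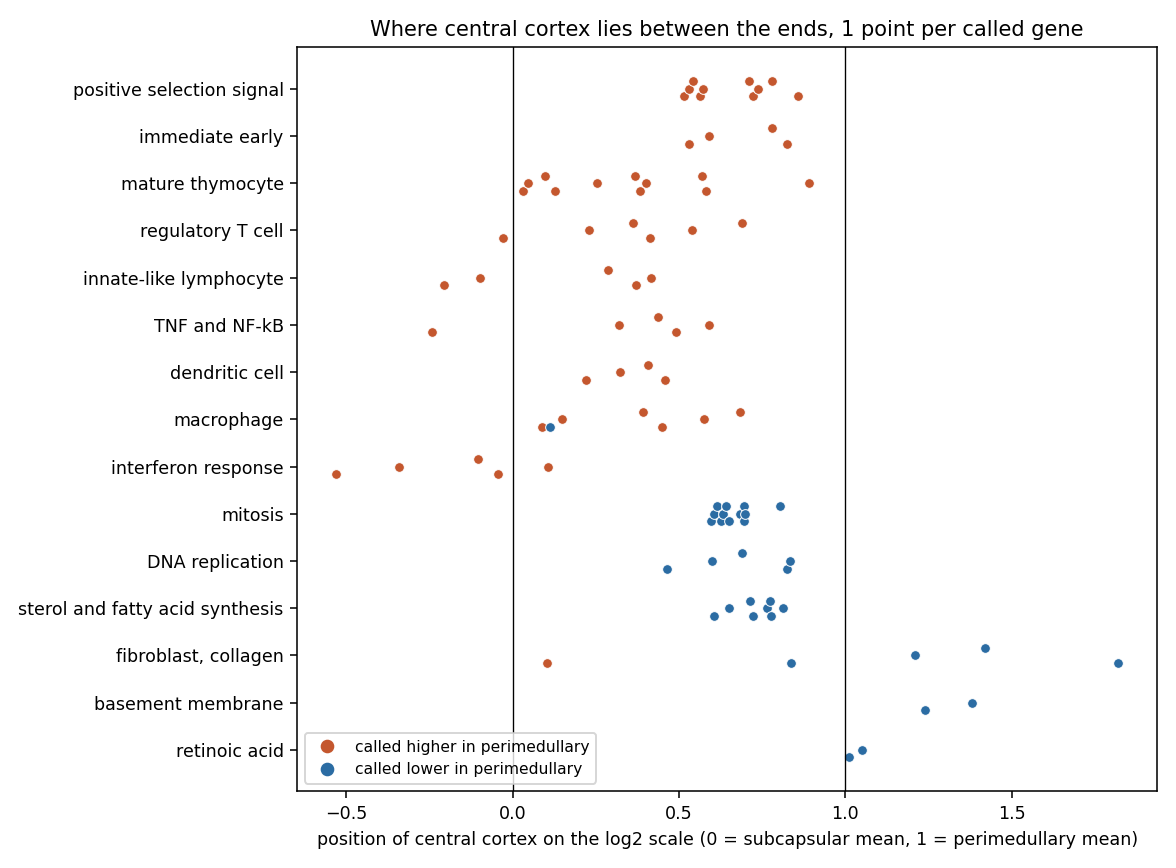
Position of the central cortex mean between the subcapsular mean (0) and the perimedullary mean (1) on the log2 scale, 1 point per called gene of 15 lists. Positive selection and immediate early genes lie between 0.514 and 0.858, interferon genes between -0.53 and 0.107, and the genes of connective tissue that fell mostly beyond 1.

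Whole medulla and whole cortex, which share no array with the layers, give the difference between compartments for the same genes. In that comparison 2511 genes were higher and 725 lower in medulla, 18.7% and 5.39% of those tested. Of the 396 genes that rose toward the medulla, 321 (81.1%) were also higher in medulla than in cortex, which is 12.8% of the 2511. Of the 224 that fell, 119 (53.1%) were also lower in medulla, which is 16.4% of the 725. Across all genes the 2 differences had a Pearson correlation of 0.453, where genes are not independent replicates. Ptcra, for example, had a log2 fold change of -1.25 across the cortex and -4.23 between compartments, and Gimap4 had 3.62 and 3.74.

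**Figure D5:**
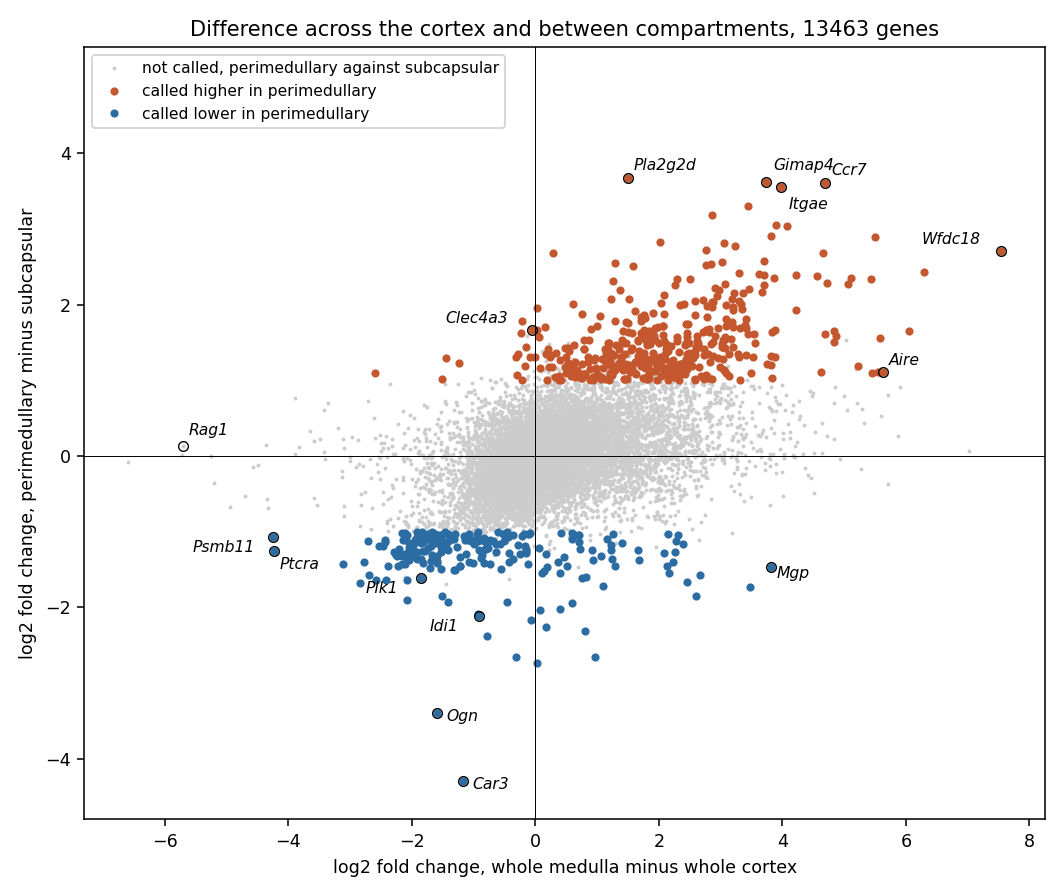
Log2 fold change across the cortex (perimedullary minus subcapsular, vertical axis) against that between compartments (whole medulla minus whole cortex, horizontal axis) for 13463 genes, with genes called across the cortex coloured by direction and some named genes circled. Most called higher genes lie to the right of 0, the called lower genes lie on both sides, and Rag1, at -5.71 between compartments, is near 0 across the cortex.

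Opposite directions were called for 29 genes, 4 of which rose toward the medulla and were lower in it, and 25 of which fell and were higher in it. Among those 25 were Mgp, Lamb1 and Myl9, described above, and the collagen gene Col1a2. Mgp read 169, 246 and 530 in whole cortex and 3325, 4297 and 5583 in whole medulla as lowest, median and highest of 7 arrays, and it was lower in the central and perimedullary arrays than at the capsule. The 4 genes of the other kind were Cacna1e, Clec1b, Gm16794 and Slc6a19, with log2 fold changes of 1.30, 1.23, 1.02 and 1.09 across the cortex. They were named after their values were seen. For 212 of the 620 called genes the whole cortex mean lay outside the range of the 3 layer means, below it for 131 and above it for 81.

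A direct comparison of perimedullary cortex with whole medulla, which uses the same perimedullary arrays, called 1224 genes higher (9.09%) and 2721 lower (20.2%) in perimedullary cortex. Under quantile normalization these were 1522 and 2116, which moved the share of higher calls from 31.0% to 41.8%. Of the genes that rose across the cortex, 171 were lower than in whole medulla and 24 higher. Ccr7 was lower by 3.19 on the log2 scale (SE 0.18, adjusted p = 1.9e-16) and Aire by 4.00 (SE 0.32, adjusted p = 5.8e-13). Pla2g2d was higher in perimedullary cortex than in medulla by 1.31 (SE 0.26, adjusted p = 6.6e-05), with 269, 683 and 958 as lowest, median and highest of the medullary arrays. All 3 perimedullary arrays were above all 7 medullary ones.

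Ranked by the smaller of both fold changes, the 5 genes highest above subcapsular cortex and medulla were Pik3r6, Depp1, Gm16499, Clec4a3 and Tspan10. Clec4a3, a lectin receptor of myeloid cells, was the most even of them: it read 151, 126 and 225 in subcapsular, 239, 199 and 183 in central and 594, 526 and 598 in perimedullary arrays (log2 fold change 1.66, SE 0.31, adjusted p = 0.00016). The 7 medullary arrays of Clec4a3 had 143, 204 and 240 as lowest, median and highest value, all below the perimedullary ones. Pik3r6, a regulator of a phosphoinositide kinase of leukocytes, had 1014, 357 and 1177 against 5466, 6845 and 1203, and Depp1 had 1075, 63 and 813 against 11336, 1744 and 1067. The perimedullary arrays of both differed several-fold from each other, and those of Depp1 overlapped with the subcapsular ones. In whole cortex, Pik3r6 read at most 336, below all 9 layer arrays, and the mean of Gm16499 was 119, below its subcapsular (212), central (398) and perimedullary (618) means. The set of arrays and the difference from the medulla cannot be told apart for these genes.

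With plain-suffix probe sets Pik3r6 had a log2 fold change of 0.55 (adjusted p = 0.31). Its adjusted p was 0.0065 with all arrays and 0.055, 0.071 and 0.081 without perimedullary array 1, perimedullary array 2 and subcapsular array 2. Depp1 had 0.024, and 0.26 and 0.29 without perimedullary array 1 and subcapsular array 2. Gm16499 (log2 fold change 1.57, SE 0.44, adjusted p = 0.011) lost its call without perimedullary array 2 (adjusted p = 0.062) or subcapsular array 3 (0.15). With averaged probe sets Gm16499 had 0.77 (adjusted p = 0.16). Tspan10 (1.66, SE 0.48, adjusted p = 0.013) lost its call without perimedullary array 1 (adjusted p = 0.056) or subcapsular array 2 (0.085). In 12 of the 24 genes that were higher in perimedullary cortex than in both other tissues, the whole cortex mean lay within the range of the 3 layers.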

How the data were processed

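Per the submitters' processing notes, the deposited values are MAS5 intensities on a linear scale from Affymetrix Expression Console 1.0. Tissue RNA was isolated with RNAqueous Micro kits and labelled from oligo-dT primers, per the labels' protocols. Background settings and filters are not given in the sources used here. Of 45037 probe sets, 30045 passed a filter, which asked for 3 or more arrays with a signal over that array's median, and 24883 of them had 1 gene symbol. Each gene was its brightest probe set, which left 13463 genes. All 33 arrays were fitted with 7 group means on log2(signal + 26.2) in limma 3.58.1 (R 4.3.3), 2-sided, with a trend of the spread, 26 residual degrees of freedom and Benjamini-Hochberg adjustment over all genes. Log2 fold changes of dim genes are understated by the offset. The fit was tested on simulated data.

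Alternatives were a smaller offset, quantile normalization, filters, other treatments of several probe sets, other sets of arrays, a replicate block, array weights and leaving out each array. Named genes were the 10 largest changes in each direction with arrays that do not overlap, up to 4 called members per list or the one with the smallest p, the 5 genes highest above both subcapsular cortex and medulla, and 9 markers. The comparison, the lists and this rule were chosen with earlier results of these data known. The number of arrays limits the precision. Promoters came from RefSeq.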

Additional observations from a re-analysis of the deposited data

Results flagged for a closer look

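The 7 whole-cortex arrays of Aldh1a3, an enzyme of retinoic acid synthesis, include 1 that lies apart. Array 2 had the lowest signal at 26.3, the next lowest was 81.0 and the highest 122, so that the gap to its neighbour took up 0.57 of the range, above Dixon's 95% critical value for 7 arrays. Of 72 groups examined in this way (36 genes in whole cortex and whole medulla) 1 was past that value, and chance alone puts about 1 in 20 groups past it. The signal of 26.3 is at the dim end of an array, and the comparison across the cortex does not use this array's value of Aldh1a3 except in the estimate of the spread.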

How the results depend on the processing

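Between perimedullary and subcapsular cortex, the counts of 396 higher and 224 lower genes stayed within 1.5 times under every alternative that tests 1 value per gene. They ranged from 335 to 400 and from 185 to 256 with 1 of the 6 arrays left out, and quantile normalization gave 311 and 242. Testing every probe set gave 897 and 359, out of 30045 tested. For medulla against cortex, every probe set gave 4717 higher and 1455 lower and the stricter filter 1368 higher. For perimedullary cortex against medulla, every probe set gave 2980 higher and 5860 lower, the stricter filter 1509 lower and the mean of the probe sets 719 higher, and leaving out 1 perimedullary array gave 1207 to 1227 and 2660 to 2731. The share of higher genes among those called in that comparison was 31.0%, and 42.6% under the stricter filter and 21.0% with the mean of probe sets. The stricter filter tested 9046 genes; the cause of the other shifts was not tested. Quantile normalization moved the median log2 fold change of medulla against cortex from 0.109 to -0.0244 and that of perimedullary cortex against medulla from -0.171 to -0.00613. Same-numbered arrays of both layers did not deviate together (correlations of 0.103, -0.0456 and 0.0367), so the numbers were not taken as pairs. With the replicate number as a block, 441 genes were higher and 247 lower across the cortex, and 616 of the 620 called genes were called in both fits.

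Of 102 called genes named by the rule, 74 kept direction and call under all of the 16 alternatives that tested them, and 28 lost the call under at least 1. The direction reversed for Fscn1 alone, at -0.0087 among plain-suffix probe sets. Signals near the dim end of an array limit the lower side of genes such as Ogn, Aldh1a1, Fezf2 and Ccr7, whose fold changes depend on the offset.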

Other observations

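Several families of genes with a shared symbol had more than 1 member that changed. They were picked after their values were seen and were not tested as groups. Over all genes tested, 2.94% rose, 1.66% fell and 18.7% were higher in whole medulla than in whole cortex. Of 8 tested Gimap genes, GTPases of lymphocyte survival, 6 rose, with a median log2 fold change of 1.31. Of 11 Ms4a genes, membrane proteins of B cells, T cells and myeloid cells, 7 rose, with a median of 1.41. Of 8 Oas genes, antiviral synthetases, 5 rose, with a median of 1.15, and all 8 were higher in whole medulla than in whole cortex. Of 8 Slfn genes, regulators of lymphocyte quiescence, 3 rose, with a median of 0.72, and Slfn3, Slfn4 and Slfn9 had -0.67, -0.31 and -0.36, which did not pass. Slfn1 read 5.57, 30.4 and 9.82 in subcapsular, 30.2, 31.6 and 8.24 in central and 222, 235 and 242 in perimedullary arrays. In the other direction, 6 of 28 kinesin genes of the Kif family fell, with a median of -0.30.

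The genes named from here on were chosen after their values were seen. Klf2, the transcription factor that switches on S1pr1 in mature thymocytes, read 205, 211 and 210 in subcapsular, 216, 221 and 241 in central and 996, 1065 and 1107 in perimedullary arrays. Gpr18, a receptor of lymphocytes, read 158, 181 and 195, then 366, 303 and 322, then 1470, 1345 and 1411. Klf2 thus stayed level through central cortex, while Gpr18 rose at both steps.

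Hoxa5 and Armc8 differed far more between sets of arrays than across the cortex. Armc8 read 5740, 10461 and 3740 in subcapsular, 13467, 13806 and 4227 in central and 9197, 25640 and 14576 in perimedullary arrays, against 292, 459 and 563 as lowest, median and highest of 7 whole-cortex arrays. Hoxa5 read 1401, 1349 and 2348 in subcapsular and 6163, 7070 and 1713 in perimedullary arrays, against 165, 306 and 513 in whole cortex. The whole-cortex arrays of both genes lay below all 9 layer arrays, and the cause was not tested.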
